A study of Rattus norvegicus with 10 samples.

Results

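The CCN family is a set of secreted, cysteine-rich proteins that sit in the extracellular matrix and act between growth factors, integrins and the cell surface. The members described here are Ctgf (CCN2), Cyr61 (CCN1), Nov (CCN3), Wisp1 (CCN4) and Wisp2 (CCN5), taken by their older symbols from the deposited tables, and all 5 were found among the 31580 genes of the tissue table and among the 39537 features of each nuclear matrix. The study measured RNA in the area at risk of the rat heart, the muscle that loses its blood supply on ligation of the left coronary artery and is reperfused later. Every animal had this injury, and the groups differed in treatment, which was either vehicle or the small molecule BT2 (a code name). Tissue RNA gave 8 libraries, with 2 for vehicle and 2 for BT2 at 4 h and again at 24 h, and single nuclei gave 1 library for vehicle and 1 for BT2 (100 mg/kg) at 24 h. No BT2 dose for the tissue samples, strain or age is stated in the labels used here, and the titles count hours from ligation while the series text counts them from the injury with reperfusion.

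CCN proteins share an IGF-binding-protein-like module, a von Willebrand factor C module and a thrombospondin module, and all members but Wisp2 end in a cystine knot. They bind integrins and heparan sulfate proteoglycans, and CTGF also binds TGF-beta and bone morphogenetic proteins. In mammalian cells Ctgf and Cyr61 are immediate-early genes and standard targets of the co-activators YAP and TAZ with TEAD factors, of SRF with its co-activators and, for Ctgf, of TGF-beta through SMAD proteins. In the injured heart CTGF is known as a fibroblast product that accompanies scar formation. Wisp1 is known as a target of Wnt signalling, and in mouse work Nov and Wisp2 have been described as acting against fibrosis.

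The bases before the start of Ctgf and Cyr61 are shown because both genes are textbook TEAD targets and the results turn on them. The sequences are from RefSeq (build GRCr8), at chr1:22624615-22624864 on the minus strand for Ctgf and at chr2:237225690-237225939 on the minus strand for Cyr61, each covering the 250 bases before the annotated start, written 5′ to 3′ with the TEAD motif GGAATG or its reverse complement in capitals.
Ctgf: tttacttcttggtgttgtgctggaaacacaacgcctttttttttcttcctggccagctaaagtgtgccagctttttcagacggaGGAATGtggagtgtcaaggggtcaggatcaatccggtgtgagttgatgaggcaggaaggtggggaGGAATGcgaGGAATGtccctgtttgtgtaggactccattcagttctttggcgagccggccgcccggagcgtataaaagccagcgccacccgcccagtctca
Cyr61: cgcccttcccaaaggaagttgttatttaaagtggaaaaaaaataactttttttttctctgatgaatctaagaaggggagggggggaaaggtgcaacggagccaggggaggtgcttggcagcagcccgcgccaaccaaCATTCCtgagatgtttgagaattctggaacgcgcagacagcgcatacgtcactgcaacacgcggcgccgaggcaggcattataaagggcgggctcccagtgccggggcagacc
The Ctgf window held the motif 3 times, beginning 166, 101 and 92 bases before the start. The Cyr61 window held it 1 time, 113 bases before the start and on the opposite strand. Of 33469 rat promoter windows of the same length, 12.1% held the motif at least 1 time on either strand and 0.0807% held it at least 3 times. Both windows also held TATAAA, found in 12.9% of all windows, and neither held the AP-1 motif TGANTCA, found in 6.34%, where both strands were searched and none of these matches overlapped another. A match of letters is a description and not a measured binding site. Of the 5 members described here, these were the ones whose promoter stood in the sequence table used.

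Total counts of the tissue libraries ran from 10397310 to 24480984. Levels are given as CPM, read counts scaled to a common library size with TMM factors, and since exon lengths were not at hand they are compared between groups and never between genes. Each contrast was tested with edgeR's quasi-likelihood test over 15216 genes, with Benjamini-Hochberg adjustment, and a gene is said to have risen or fallen where the adjusted p was under 0.05. All 5 members passed the filter on low counts, Wisp1 through the vehicle libraries at 24 h alone. Wisp2 passed it in the libraries of 24 h and, with 9 and 15 counts, in the second vehicle and second BT2 libraries of 4 h. Wisp1 therefore entered the test because it was high in vehicle at 24 h, and its values in contrasts with that group are a description. Where Wisp1 or Wisp2 passed the test, the adjusted p of the fit without any filter on low counts is also given. The labels do not tie the 2 libraries of a group to different animals, and the p-values measure the spread between these libraries.

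At 4 h, Ctgf and Cyr61 were about 5-fold lower in the tissue of animals given BT2, and Nov, Wisp1 and Wisp2 did not pass the test. Ctgf stood at 1701.6 and 2293.3 CPM in the vehicle libraries and at 442.1 and 243.8 CPM with BT2. Both BT2 libraries lay far below both vehicle libraries, and the mean went from 1997.5 ± 418.5 (SD, n = 2) to 343 ± 140.2 CPM (SD, n = 2). Ctgf fell by 2.54 ± 0.28 (SE) on the log2 scale, a 5.83-fold lower level (edgeR adjusted p = 0.00919). Cyr61, a matricellular inducer of adhesion and angiogenesis, stood at 1764.9 and 1883.4 CPM in vehicle and at 494.8 and 192.7 CPM with BT2. The vehicle libraries were close to each other, while the BT2 libraries differed more than 2-fold between themselves and both stayed below vehicle. Cyr61 fell by 2.41 ± 0.48 on the log2 scale (edgeR adjusted p = 0.0218), and this call was lost without the second BT2 library (adjusted p = 0.0701) or without the first or second vehicle library (0.0546 and 0.114), with no filter on low counts (0.0946) and with the 4 h groups alone (0.0505). Of the 5 members 0 rose and 2 fell at 4 h, while of all genes tested 16.4% changed, 6.67% upwards and 9.73% downwards.

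Nov stood at 5 and 4.14 CPM in vehicle and at 6.03 and 5.59 CPM with BT2 at 4 h. The BT2 libraries were both above vehicle, by 0.35 ± 0.27 on the log2 scale, and the difference did not pass the test (edgeR adjusted p = 0.402). Wisp1 was at the edge of detection at 4 h, with 0 and 2 counts in the vehicle libraries and 2 and 2 counts with BT2. Wisp2 gave 2 and 9 counts in vehicle and 4 and 15 counts with BT2, that is 0.218 and 0.631 CPM against 0.317 and 0.847 CPM. The groups overlapped for both genes, and at this depth a difference was not detectable.

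**Figure D1:**
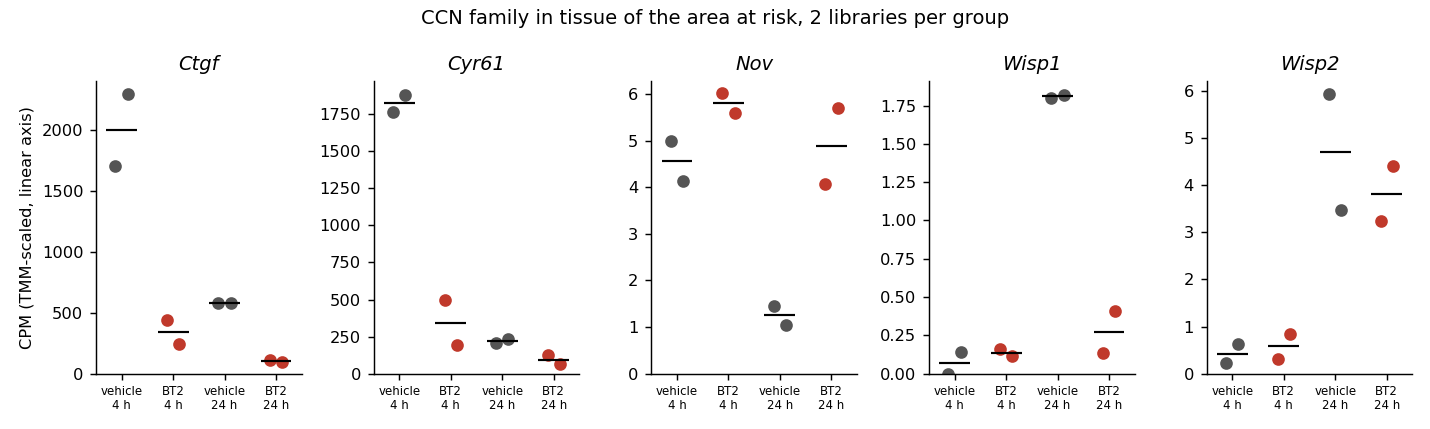
Level of each family member in every tissue library, in CPM on a linear axis that starts at 0, with vehicle in grey, BT2 in red and a bar at the mean of the 2 libraries. Ctgf and Cyr61 were highest in vehicle at 4 h, where they averaged 1997.5 and 1824.1 CPM, Nov was lowest in vehicle at 24 h (1.25 CPM) and Wisp1 was highest there (1.81 CPM).

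At 24 h, Ctgf was again lower with BT2 by nearly the same factor, Wisp1 had fewer counts and Nov was higher, while Cyr61 and Wisp2 did not pass the test. Ctgf stood at 578.3 and 576.9 CPM in vehicle and at 107.8 and 91.7 CPM with BT2. The 2 libraries of each group were close together and the groups were far apart. Ctgf fell by 2.53 ± 0.28 on the log2 scale, 5.79-fold (edgeR adjusted p = 0.000999). It remained past the threshold under each of the 15 alternatives of the processing at 24 h and under each of the 15 at 4 h.

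Nov moved the other way at 24 h. It stood at 1.46 and 1.04 CPM in the vehicle libraries (42 and 25 counts) and at 4.07 and 5.71 CPM with BT2 (90 and 140 counts). The groups did not overlap, and Nov rose by 1.96 ± 0.28 on the log2 scale, 3.89-fold (edgeR adjusted p = 0.0017). Wisp1 gave 52 and 44 counts in vehicle and 3 and 10 counts with BT2, that is 1.8 and 1.82 CPM against 0.136 and 0.408 CPM. The log2 difference for Wisp1 was -2.69 ± 0.53 (edgeR adjusted p = 0.00583, and 0.00022 with no filter), in a contrast whose vehicle group admitted the gene to the test. The counts of both libraries together gave a ratio of BT2 to vehicle of 0.154, with an exact 95% interval for counting error of 0.079 to 0.276.

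Cyr61 stood at 205.9 and 234.6 CPM in vehicle at 24 h and at 126.4 and 63 CPM with BT2. Both BT2 libraries were below both vehicle libraries, by 1.22 ± 0.46 on the log2 scale, and the difference missed the threshold (edgeR adjusted p = 0.0757). It passed in the fit of the 24 h groups alone (0.0333) and without either BT2 library of 4 h (0.0217 and 0.0213). Wisp2 stood at 5.93 and 3.48 CPM in vehicle and at 3.25 and 4.4 CPM with BT2, with overlapping groups and a log2 fold change of -0.30 ± 0.40 (edgeR adjusted p = 0.577). Among all genes 39.5% changed with BT2 at 24 h, 18.9% upwards and 20.7% downwards. Apart from Wisp1, which its vehicle libraries at 24 h admitted to the test, Nov rose, Ctgf fell and Cyr61 and Wisp2 did not pass.

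Marker genes of other cells moved between the same 24 h libraries. The 11 cardiomyocyte markers summed to 22546.9 and 23290.9 CPM in vehicle and to 49185.3 and 37271.2 CPM with BT2, and 10 of them rose. Fibroblast markers summed to 4863.8 and 4319.9 CPM in vehicle and to 7346.1 and 6605.4 CPM with BT2, where 5 of 10 tested rose and 1 fell, and Col1a2 was near 0 with 1 count in all 8 libraries. Monocyte or macrophage markers summed to 3244.8 and 3904.7 CPM in vehicle against 1225 and 1439.8 CPM with BT2, with 7 of 13 lower and 1 higher, and all 5 markers of proliferating cells were lower. At 4 h the fibroblast sums overlapped (5336.9 to 6176.2 CPM in vehicle, 5825.6 to 5938.9 CPM with BT2), the cardiomyocyte sums overlapped, and 5 of 9 neutrophil markers were lower. The part of these shifts in the levels of the CCN genes was not tested. In tissue RNA, fewer cells of a type and less RNA per cell cannot be told apart.

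A difference in the effect of BT2 on Ctgf between the times was not detectable. The difference between the log2 effects at 24 h and at 4 h was 0.01 ± 0.38 for Ctgf, with a 95% interval from -0.86 to 0.88 (edgeR adjusted p = 0.994). For Nov the difference was 1.61 ± 0.39 (edgeR adjusted p = 0.0477), and it was the 1 member to pass, where 7.14% of all genes passed, 4.72% with a higher and 2.43% with a lower effect at 24 h. That call was lost without any 1 of the 8 libraries, with adjusted p from 0.073 to 0.163, under upper quartile scaling (0.0502) and with a replicate block (0.069). For Cyr61 the difference was 1.19 ± 0.65 with an interval from -0.29 to 2.67 (edgeR adjusted p = 0.296), and for Wisp1 and Wisp2 it did not pass either (0.163 and 0.622).

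Between 4 h and 24 h in vehicle tissue Ctgf, Cyr61 and Nov fell, and Wisp1 and Wisp2 had higher levels at 24 h. Over all genes 47.1% changed (23.3% upwards and 23.8% downwards), and the level of Wisp1 at 24 h is what admitted it to the test. Cyr61 fell by 3.05 ± 0.49 on the log2 scale, 8.28-fold (edgeR adjusted p = 0.00242). Ctgf fell by 1.79 ± 0.27 (edgeR adjusted p = 0.00152) and Nov fell by 1.85 ± 0.29 (edgeR adjusted p = 0.00142). Neither group of libraries overlapped the other for any of these genes. Wisp2 went from 0.424 ± 0.292 to 4.71 ± 1.74 CPM (SD, n = 2), a log2 change of 3.34 ± 0.55 (edgeR adjusted p = 0.00179, and 1.71e-06 with no filter). For Wisp1 the vehicle libraries held 2 counts together at 4 h and 96 at 24 h, a ratio of 21.3 with an exact 95% counting interval from 5.73 to 178 (edgeR adjusted p = 0.00242, and 2.32e-05 with no filter).

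The same interval was compared with BT2, and the test of a difference between the treatments is the one given above for the effects of BT2. Ctgf fell by 1.78 ± 0.28 on the log2 scale from 343 to 99.7 CPM (edgeR adjusted p = 0.00655), and without the second BT2 library of 24 h the adjusted p was 0.0506. Cyr61 fell by 1.86 ± 0.47 (edgeR adjusted p = 0.0322), and 8 of the 15 alternatives lost this call, with adjusted p of up to 0.139. Wisp2 reached 3.25 and 4.4 CPM, a log2 change of 2.63 ± 0.51 (edgeR adjusted p = 0.0113, and 7.75e-05 with no filter), and the call was lost without the first BT2 library of 4 h (0.0616) or the second of 24 h (0.0595). Nov went from 5.81 ± 0.31 to 4.89 ± 1.16 CPM (SD, n = 2) with overlapping libraries and a log2 change of -0.24 ± 0.26 (edgeR adjusted p = 0.514). Wisp1 gave 4 counts together at 4 h and 13 at 24 h and did not pass (edgeR adjusted p = 0.39). Over all genes 23.3% changed with time under BT2, 11.7% upwards and 11.6% downwards. The contrasts of time share their libraries with the contrasts of BT2, so the values stand side by side and are not independent of each other.

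**Figure D2:**
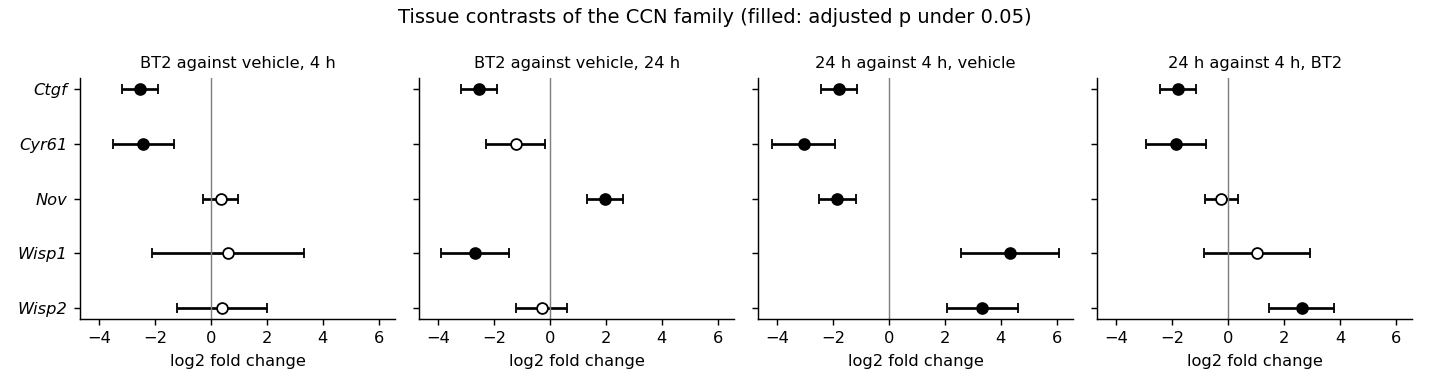
Log2 fold change of each member in the 4 tissue contrasts with its 95% interval from the edgeR fit, with filled points where the adjusted p was under 0.05. Ctgf lay near -2.5 for BT2 at both times, at -2.54 and -2.53, Nov was at 0.35 at 4 h and at 1.96 at 24 h, and Wisp1 and Wisp2 lay above 0 for time in vehicle.

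Put in order of level, Ctgf was highest in vehicle at 4 h, followed by vehicle at 24 h, BT2 at 4 h and BT2 at 24 h, with no overlap of libraries between neighbours. Cyr61 had the order vehicle at 4 h, BT2 at 4 h, vehicle at 24 h and BT2 at 24 h, and there the BT2 libraries of 4 h (192.7 to 494.8 CPM) spanned those of vehicle at 24 h. Nov was lowest in vehicle at 24 h, and the other 3 groups lay between 4.07 and 6.03 CPM, with neighbours that overlapped. Wisp1 stood out in vehicle at 24 h alone, and Wisp2 was high in both groups of 24 h without a separation between them.

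The genes most like each member over the 8 libraries were named by Pearson's r of log2 CPM among genes with a mean of at least 5 CPM. For Ctgf they were Brix1 (r = 0.996), Katnbl1 (0.993) and Cars (0.991), and for Cyr61 they were Pxdc1 (0.993), Abhd17b (0.992) and Rnf115 (0.989). For Nov they were Fam162a (0.993), Mrpl14 (0.99) and Cd300lg (0.987). Wisp1 was most like Siva1 (0.987), Mcm4 (0.986) and Rfc4 (0.985), and Wisp2 most like Tex261 (0.985) and Trerf1 (0.984), followed by Lrrc57. The libraries form 4 groups of 2, so r describes a likeness of group levels in these libraries.

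Lists of genes around the family are given by their counts, beside 16.4% of all genes called at 4 h (6.67% higher, 9.73% lower) and 39.5% at 24 h (18.9% higher, 20.7% lower). Of 13 tested receptors and co-receptors of CCN proteins, 1 rose and 6 fell at 4 h, and 0 rose and 5 fell at 24 h, with median log2 fold changes of -0.68 and -0.38 against medians of 0 and -0.01 over all genes. At 24 h the share called was near that of all genes (39.5%). Itgb1, the beta chain shared by most matrix integrins, went from 1802.5 to 1000.2 CPM at 4 h, a log2 change of -0.85 ± 0.13 (edgeR adjusted p = 0.011), and at 24 h the change was -0.86 ± 0.13 (adjusted p = 0.00221). Itgb3, the beta chain of the vitronectin receptor that CCN proteins also bind, fell by 1.36 ± 0.23 at 4 h (edgeR adjusted p = 0.0127). Itgam, the leukocyte integrin chain that binds Ctgf and Cyr61, fell by 1.86 ± 0.34 at 4 h and by 1.85 ± 0.32 at 24 h (edgeR adjusted p = 0.0167 and 0.00418), beside the neutrophil and macrophage markers given above. Sdc4, a heparan sulfate proteoglycan, fell by 1.40 ± 0.16 at 24 h (edgeR adjusted p = 0.000924). Lrp6, a Wnt co-receptor that CTGF binds, rose by 0.70 ± 0.15 at 4 h (edgeR adjusted p = 0.0208).

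Of the 8 growth factors and decoys that CCN proteins bind, 1 rose and 4 fell at 4 h, and 2 rose and 3 fell at 24 h (all genes 16.4% and 39.5%), with medians of -0.64 and -0.44. Bmp2, a bone morphogenetic protein, stood at 15.1 and 17.3 CPM in vehicle and at 6.5 and 4.8 CPM with BT2 at 4 h, and fell by 1.54 ± 0.19 and, at 24 h, by 1.47 ± 0.18 (edgeR adjusted p = 0.00919 and 0.00108). Tnfrsf11b, the decoy receptor osteoprotegerin, fell by 1.58 ± 0.20 and by 1.18 ± 0.18 (edgeR adjusted p = 0.00919 and 0.0023). Tgfb1, the growth factor whose action CTGF enhances, went from 116.2 to 59.2 CPM at 24 h and fell by 0.97 ± 0.11 (edgeR adjusted p = 0.000802). Igf1 rose at both times, by 0.66 ± 0.18 and 0.89 ± 0.18 (edgeR adjusted p = 0.0439 and 0.00618), and Vegfa rose by 0.56 ± 0.14 at 24 h (edgeR adjusted p = 0.0157). IGF-binding proteins share the first module of the CCN proteins. Of 6 tested, 0 rose and 0 fell at 4 h (all genes 16.4%), where the lowest unadjusted p in edgeR was 0.0692 for Igfbp5. At 24 h (all genes 39.5%) Igfbp5, Igfbp6 and Igfbp7 rose. Igfbp2 gave 90 and 71 counts in vehicle at 24 h and 10 and 17 with BT2, and was called lower. Its vehicle libraries of 24 h admitted it to the test, so that value is a description.

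Among 19 tested YAP and TEAD targets other than CCN genes, 0 rose and 8 fell at 4 h, and 2 rose and 7 fell at 24 h (all genes 16.4% and 39.5%), with medians of -0.43 and -0.23. Tgfb2, a TGF-beta ligand, went from 56.7 and 76.5 CPM to 29.4 and 29.4 CPM at 4 h and from 157.4 and 188.8 CPM to 33.7 and 38 CPM at 24 h. It fell by 1.18 ± 0.16 and by 2.27 ± 0.16 (edgeR adjusted p = 0.0106 and 0.000331). Fjx1, a gene linked to the Fat and Dachsous branch, fell by 1.82 ± 0.27 and by 1.31 ± 0.28 (edgeR adjusted p = 0.011 and 0.00895). The kinase gene Nuak2 fell by 1.41 ± 0.22 at 4 h (edgeR adjusted p = 0.0111). Ccdc80 and Crim1 rose at 24 h, by 0.98 ± 0.20 and 0.51 ± 0.12 (edgeR adjusted p = 0.00657 and 0.0121).

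The Hippo pathway components themselves gave 2 higher and 6 lower of 23 at 4 h, and 0 higher and 7 lower at 24 h (all genes 16.4% and 39.5%), with medians of -0.08 and -0.01. The share called at 24 h was below that of all genes. Vgll3, a TEAD cofactor, went from 41.1 to 10.8 CPM at 4 h and fell by 1.94 ± 0.20 (edgeR adjusted p = 0.00919). Wwtr1, the gene of TAZ, fell by 0.54 ± 0.10 at 4 h (edgeR adjusted p = 0.0166), and Frmd6, an upstream regulator, fell by 0.79 ± 0.11 (edgeR adjusted p = 0.0109). The TEAD gene Tead2 rose by 1.15 ± 0.27 at 4 h and Fat4 by 1.7 ± 0.46 (edgeR adjusted p = 0.0279 and 0.0443). At 24 h Mob1a, Taok1 and Stk4, which belong to the kinase cascade, fell by 0.72 ± 0.11, 0.74 ± 0.12 and 0.58 ± 0.11 (edgeR adjusted p = 0.00189, 0.00303 and 0.00468).

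Of 15 SRF and MRTF targets, 1 rose and 5 fell at 4 h, and 2 rose and 7 fell at 24 h (all genes 16.4% and 39.5%), with medians of -0.69 and -0.32. Cnn2, a calponin of non-muscle cells, fell by 1.19 ± 0.12 and by 1.18 ± 0.11 (edgeR adjusted p = 0.00919 and 0.000587), and Actn1, a non-muscle actinin, by 1.38 ± 0.32 and by 2 ± 0.32 (edgeR adjusted p = 0.0287 and 0.0032). Fhl2, abundant in cardiomyocytes, rose by 0.49 ± 0.12 and by 1.54 ± 0.12 (edgeR adjusted p = 0.0297 and 0.000344), beside the cardiomyocyte markers given above. Acta2, Cnn1 and Tagln of this list are also smooth muscle markers. Of 18 TGF-beta and SMAD targets, 0 rose and 5 fell at 4 h, and 0 rose and 11 fell at 24 h (all genes 16.4% and 39.5%), with medians of -0.44 and -0.64. Postn, the matricellular protein periostin and also a fibroblast marker here, fell by 1.90 ± 0.26 at 4 h (edgeR adjusted p = 0.011), and Tgfbi and Pmepa1 fell by 1.58 ± 0.16 and 1.70 ± 0.20 at 24 h (edgeR adjusted p = 0.000669 and 0.00108).

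**Figure D3:**
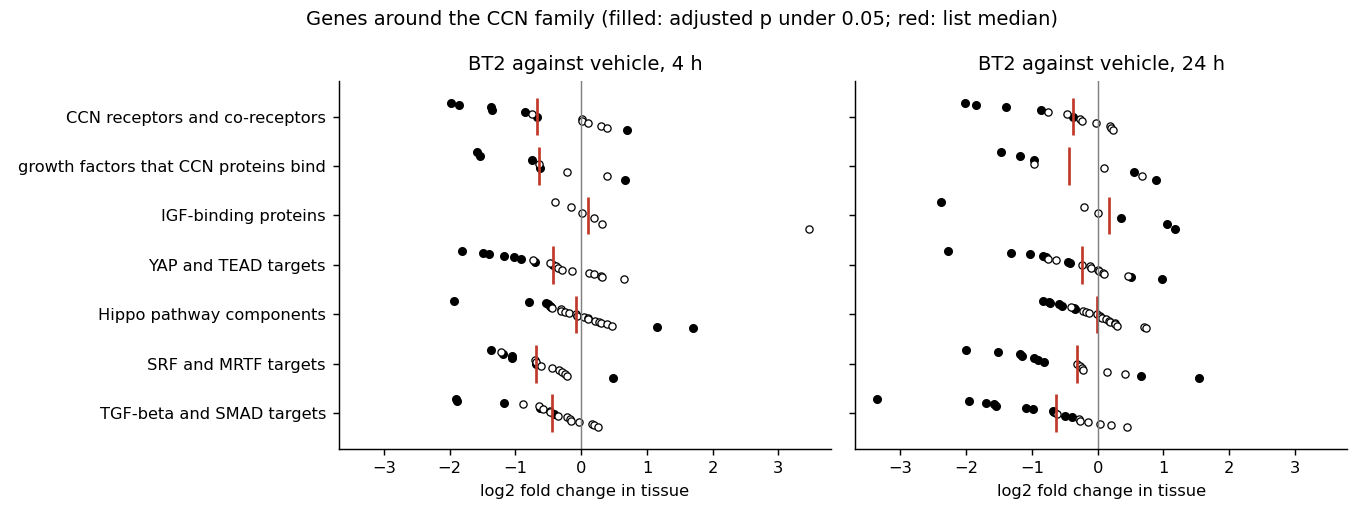
Log2 fold change in tissue of every tested gene of the lists around the CCN family, for the BT2 contrasts of both times, with filled points at an adjusted p under 0.05 and a red line at the list median. TGF-beta and SMAD targets have 0 called genes above 0 at either time, and the receptors have medians of -0.68 and -0.38.

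In time, vehicle tissue gave 5 higher and 4 lower of 13 receptors, 4 higher and 9 lower of 19 YAP and TEAD targets and 5 higher and 4 lower of 18 TGF-beta and SMAD targets, where 47.1% of all genes changed. Lrp1, an endocytic receptor that binds CTGF, rose by 1.70 ± 0.12 (edgeR adjusted p = 9.18e-05) and Sdc4 fell by 1.2 ± 0.16 (adjusted p = 0.000591). F3, the gene of tissue factor, fell by 1.72 ± 0.18 (edgeR adjusted p = 0.000229), and Tgfb2 rose by 1.37 ± 0.16 (adjusted p = 0.000323). Igfbp2 was at 0 counts in both vehicle libraries of 4 h and at 3.12 and 2.94 CPM at 24 h, the level that admitted it to the test.

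The nuclear libraries gave the members' levels by cell class at 24 h. The 2 libraries kept 11372 nuclei for vehicle and 10324 for BT2, with medians of 2465 and 2157 UMIs per nucleus, and shared 37 barcodes. Doublets are not removed, since the caller marked 1 and 0 nuclei, and 7 of 22 clusters stayed unnamed. With 1 library per group there is no test, and the intervals below are exact 95% intervals for counting error only. The fibroblast-like class held cluster 12, led by Ltbp2, Postn and Tnc (789 nuclei in vehicle and 977 with BT2), and cluster 11, led by Scara5 and Abca8a (501 and 1492). Cluster 12 held most of the class in vehicle and cluster 11 in BT2. Ctgf was among the 2000 genes used for clustering and the other 4 members were not, so levels of Ctgf between clusters are a description.

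Of the clusters, fibroblast-like cluster 12 had a high level of Ctgf in both libraries. There it reached 567.2 CPM (543.9 to 591.1) in vehicle and 532.6 CPM (513.7 to 552) with BT2, and a ratio of BT2 to vehicle of 0.939 (0.889 to 0.992). In cluster 11 it was 268.8 CPM (244.2 to 295.1) in vehicle and 67.9 CPM (59.3 to 77.5) with BT2, a ratio of 0.253 (0.214 to 0.298). The difference between the libraries was larger in the cluster led by Scara5 than in the cluster led by Ltbp2 and Postn. The 10 nuclei with most Ctgf held 39.5% and 34.4% of its UMIs in cluster 11, and without them the levels were 171.7 and 45.4 CPM. Fibroblast-like nuclei were 11.3% and 23.9% of the kept nuclei and held 48.8% (47.4% to 50.1%) and 60.1% (58.8% to 61.4%) of all Ctgf UMIs. Unnamed clusters held 31.7% and 18.4% of them. Among these, cluster 2 held 733 and 709 UMIs, a ratio of 1.36 (1.23 to 1.51), and shared the leading genes Ltbp2, Adam12 and Fbln2 with cluster 12. Cluster 9 held 875 and 173 UMIs, a ratio of 1.16 (0.982 to 1.37). Clusters 2 and 9 had median doublet scores of 0.143 and 0.122, above the limit of 0.1 for naming a cluster.

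Other classes had lower Ctgf levels than cluster 12, and some were above cluster 11 with BT2. Endocardial-like nuclei had 177.9 CPM (120.1 to 254) in vehicle, on 65 nuclei, and 200.4 CPM (154.4 to 256) with BT2. The 10 nuclei with most Ctgf held 96.7% and 68.8% of its UMIs there, and without them the levels were 7.55 and 67.9 CPM. After thinning each nucleus to 1000 UMIs, the class had 113.2 CPM (41.5 to 246.4) in vehicle and 258.3 CPM (183.7 to 353.1) with BT2. The whole fibroblast-like class then had 391 CPM (356.5 to 428) in vehicle and 214.9 CPM (196.5 to 234.6) with BT2. Cardiomyocyte-like nuclei had 78.4 CPM in vehicle and 123.9 CPM with BT2, a ratio of 1.58 (1.40 to 1.79), which was 1.28 after thinning. Smooth muscle-like nuclei had 51.3 and 161.5 CPM, on 18 and 115 UMIs, and 10 nuclei held 80.9% of the UMIs with BT2. After thinning the levels were 62.5 CPM (22.9 to 136) and 66.3 CPM (33.1 to 118.6), with overlapping intervals. Pericyte-like nuclei had 36.4 and 60.6 CPM and endothelial-like nuclei 44.9 and 38.9 CPM, the latter with a ratio of 0.866 (0.718 to 1.04) that became 1.21 after thinning. Leukocytes, which should have little Ctgf of their own, gave 15 and 17.3 CPM in monocyte or macrophage-like nuclei and 32.8 and 34.7 CPM in lymphocyte-like nuclei. Of all kept fibroblast-like nuclei, cluster 11 made up 501 of 1290 in vehicle and 1492 of 2469 with BT2, so shares of this class mix both clusters in unlike parts. At 1000 UMIs per nucleus, 25% of fibroblast-like nuclei had a Ctgf UMI in vehicle and 13.8% with BT2 (42.9% and 24% without thinning, at medians of 3456 and 2312 UMIs). The same shares were 3.65% (1.2% to 8.31%) and 3.45% (0.717% to 9.75%) in lymphocyte-like nuclei, on 137 and 87 nuclei. Without thinning these were 4.06% and 3.24%, at medians of 1012 and 806 UMIs. Endothelial-like nuclei had 2.94% and 3.57% and were not separated from this small class. By level after thinning, endothelial-like nuclei had 37.2 CPM (29.8 to 46.1) in vehicle and 45.2 CPM (35.6 to 56.6) with BT2. Monocyte or macrophage-like nuclei were lower, at 17.5 CPM (12.3 to 24.1) in vehicle and 17.5 CPM (10.4 to 27.6) with BT2.

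Cyr61 was also measured in fibroblast-like and in other classes. It reached 209.1 CPM (195.1 to 223.9) in cluster 12 in vehicle and 202.8 CPM (191.3 to 214.9) with BT2, and 81.2 and 59 CPM in cluster 11. Cardiomyocyte-like nuclei gave 64.5 and 113.6 CPM, a ratio of 1.76 (1.54 to 2.01), which was 1.09 after thinning. Pericyte-like nuclei gave 70.7 and 127.8 CPM, a ratio of 1.81 (1.42 to 2.32), and endothelial-like nuclei 45.4 and 65.7 CPM, a ratio of 1.45 (1.23 to 1.70). Smooth muscle-like nuclei held 14 and 95 Cyr61 UMIs on 105 and 189 nuclei, a ratio of 3.34 (1.9 to 6.34). In that class 10 nuclei held 55.8% of the UMIs with BT2. Monocyte or macrophage-like nuclei gave 13.2 and 19.7 CPM. Neutrophil-like nuclei held 38 and 19 Cyr61 UMIs on 736 and 264 nuclei, a ratio of 1.58 (0.859 to 2.81). How much of these leukocyte values is background was not tested. Fibroblast-like nuclei held 31.8% and 38.7% of all Cyr61 UMIs, and unnamed clusters held 36% and 24.8%.

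**Figure D4:**
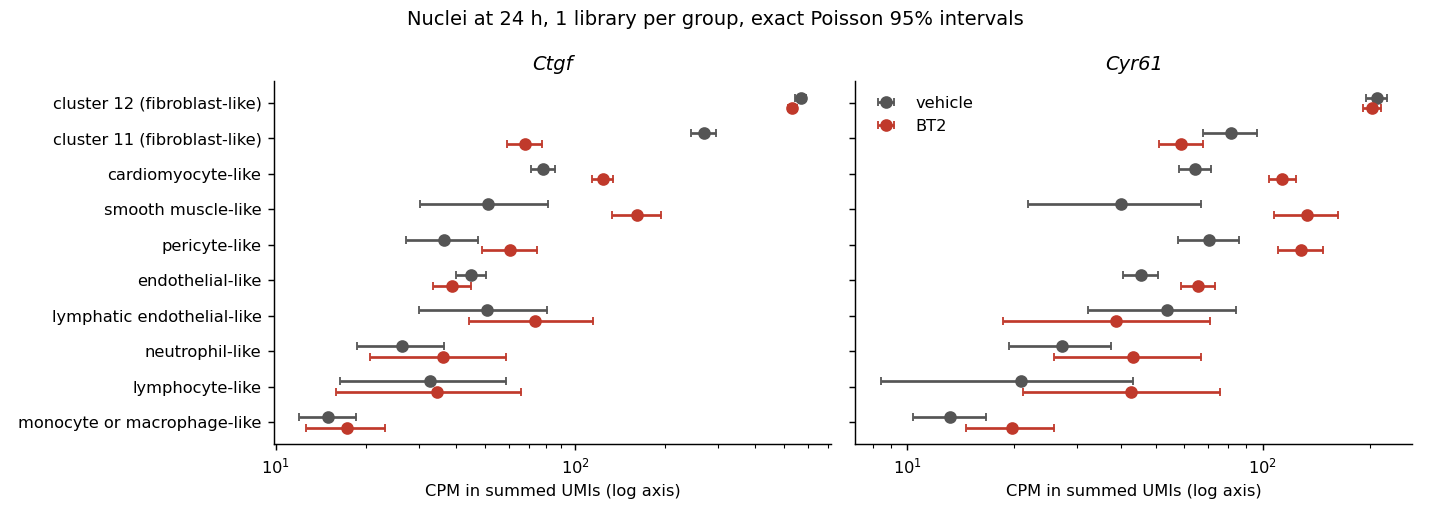
Level of Ctgf and Cyr61 in summed UMIs of nuclei at 24 h by cell class, in CPM on a log axis, with vehicle in grey, BT2 in red and exact Poisson 95% intervals, where each group is 1 library. Endocardial-like, Schwann or glial-like, dendritic cell-like and unnamed nuclei are not drawn. Among the rows drawn, Ctgf was highest in fibroblast-like cluster 12 (567.2 and 532.6 CPM) and stood at 268.8 and 67.9 CPM in cluster 11. Cyr61 in cardiomyocyte-like nuclei stood at 64.5 and 113.6 CPM.

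The other 3 members were sparse. Nov gave 36 UMIs in vehicle and 26 with BT2, of which 18 and 12 lay in fibroblast-like nuclei, 5 and 13 in smooth muscle-like nuclei and 13 and 1 in unnamed clusters. By level, smooth muscle-like nuclei were highest for Nov, at 14.3 CPM (4.63 to 33.3) in vehicle and 18.3 CPM (9.72 to 31.2) with BT2. Endothelial-like nuclei held 0 Nov UMIs among 2428 and 1708 nuclei, which by the floor of 3 counts allows up to 0.124% and 0.176% of nuclei with a UMI.

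Wisp1 was found mainly in fibroblast-like cluster 12 and in unnamed clusters. Cluster 12 held 67 UMIs in vehicle and 125 with BT2, that is 17 and 22.1 CPM and a ratio of 1.30 (0.962 to 1.78), whereas cluster 11 held 0 and 4. Fibroblast-like nuclei held 43.8% of all Wisp1 UMIs in vehicle and 69% with BT2, and unnamed clusters 45.1% and 16%. In vehicle, unnamed clusters 2 and 9 held 34 and 31 UMIs, at 7.3 CPM (5.05 to 10.2) and 4.34 CPM (2.95 to 6.15). Cardiomyocyte-like nuclei held 10 and 16 UMIs and monocyte or macrophage-like nuclei 1 and 3. Wisp2 in cluster 11 stood at 14 CPM (8.91 to 21.1) in vehicle and 4.3 CPM (2.35 to 7.22) with BT2, and in cluster 12 at 4.81 and 2.66 CPM, while 8 and 1 of its 73 and 37 UMIs lay in monocyte or macrophage-like nuclei. Over the fibroblast-like class the ratio of BT2 to vehicle for Wisp2 was 0.433 (0.260 to 0.712), on 42 and 29 UMIs. The intervals of the 2 clusters for Wisp2 were apart in vehicle and overlapped with BT2 (1.49 to 4.38 CPM in cluster 12). After thinning cluster 11 had 6.7 and 2.9 CPM and cluster 12 had 3.98 and 3.15 CPM, on 3 or 4 UMIs each, so no order of the clusters held at that depth.

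Summed over all nuclei, the ratios of BT2 to vehicle for Ctgf, Cyr61, Nov and Wisp1 did not follow the tissue at 24 h. Ctgf was at 121.8 CPM (118.6 to 125) in vehicle and 166 CPM (161.6 to 170.5) with BT2, a ratio of 1.36 (1.31 to 1.42), where tissue was 5.79-fold lower with BT2. Cyr61 had a ratio of 1.60 (1.52 to 1.68), where tissue was 2.33-fold lower without passing the test. Wisp1 had a ratio of 1.70 (1.37 to 2.12), where tissue Wisp1 was 6.43-fold lower. Nov had 0.798 and 0.803 CPM, a ratio of 1.01 (0.584 to 1.71), where tissue was 3.89-fold higher. After thinning Nov stood at 0.995 CPM in vehicle and 0.439 CPM with BT2, on 10 and 4 UMIs. Wisp2 had a ratio of 0.706 (0.462 to 1.06), where tissue was 1.23-fold lower without passing the test, so the direction was the same. The tissue value is polyadenylated RNA of 2 libraries against 2 and the nuclear value is nuclear RNA of 1 library against 1, on other scales and depths. Fibroblast markers summed to 2258.2 CPM over all vehicle nuclei and 4122.3 CPM with BT2, and their part in these ratios was not tested. Tgfb2, which fell in tissue at 24 h, had a ratio over all nuclei of 1.21 (1.17 to 1.24) and in fibroblast-like nuclei of 0.847 (0.797 to 0.899).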

How the data were processed

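The authors deposited a table of raw read counts per gene for the 8 tissue libraries and raw UMI count matrices for the 2 nuclear libraries. The submitters' processing notes name Trim Galore, STAR, featureCounts, Cell Ranger and the build Rnor_6.0, with strand setting, annotation and intron counting not given in the sources used here. Tissue counts were tested with edgeR 4.0.16 (quasi-likelihood, robust, TMM scaling, filterByExpr, 1 mean per group, 4 residual degrees of freedom), which kept 15216 of 31580 genes. Totals per library ran from 10397310 to 24480984. Intervals of nuclear levels, shares and ratios and of pooled counts cover counting error only, and those of tissue log2 changes come from the edgeR fit. Nuclei with at least 500 UMIs, at least 200 genes and at most 5% mitochondrial UMIs were kept and clustered with scanpy 1.11.5 (2000 variable genes, 30 components, 15 neighbours, Leiden resolution 0.5), and classes were named from marker lists. On simulated counts for BT2 at 4 h, the fit recovered 54.8% of 2-fold and 78.4% of 4-fold changes among 14868 genes. Of the 150 genes called there, 13 were false. The simulation changed 200 genes, far fewer than the 2495 called in the data, so its recovery need not hold for them. Named list genes were those with the smallest p among called genes whose groups did not overlap, up to 3 per direction for BT2 and 2 for time, and fewer are printed, with 1 gene of the lists not reported here. Members and lists were chosen with earlier results of these data known. Samples with the same replicate number did not deviate together (r from -0.046 to 0.097). Alternatives were RLE and upper quartile scaling, DESeq2 1.42.0, no filter, a replicate block, no robust dispersion, the compared groups alone, each library left out and, for nuclei, thinning and other clusterings.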

Additional observations from a re-analysis of the deposited data

Results flagged for a closer look

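The effect of BT2 on the log2 scale differed between 24 h and 4 h, by the test of the difference itself (edgeR, 4 groups of 2 libraries), for Nov among the family members and for 11 named genes around it, where 7.14% of all genes passed. The named genes had been picked by small p in other contrasts of the same libraries, so their number cannot be set against that share. Without the second vehicle library of 24 h, 0 genes passed over the whole table, these included, and with the other libraries left out in turn 22 to 1443 passed. The difference of Nov was 1.61 ± 0.39 (adjusted p = 0.0477), and it was lost when any 1 of the 8 libraries was left out. More positive effects at 24 h were found for F3 (1.37), Vgll3 (1.12), Frmd6 (1.08), Fhl2 (1.05), Myl9 (0.94), Crim1 (0.90) and Bmp4 (0.84), with adjusted p from 0.0181 to 0.0487 in edgeR. More negative effects at 24 h were found for Tgfbi (-1.55), Taok1 (-1.13), Tgfb2 (-1.09) and Lrp1 (-0.77), with adjusted p from 0.0181 to 0.0382 in edgeR. Cardiomyocyte markers were higher and macrophage markers lower with BT2 at 24 h, and their part in these differences was not tested.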

How the results depend on the processing

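Of 364 values of a member under an alternative, 322 kept their direction and side of the threshold, and of 209 of called values 183 were still called and 0 reversed. These counts include Wisp1 in the contrasts with vehicle at 24 h, which are a description. They also include fits that left out a library of a group outside the contrast. Of the 5 members, 2 were called with BT2 at 4 h, and 1 without a filter, 1 with the compared groups alone (3 members tested) and 1 to 2 with a library left out. For the difference of effects 1 was called, and 0 under upper quartile scaling, 0 with the replicate block and 0 with any library left out. For time in BT2 3 were called, and 0 to 3 with a library left out, 1 without the first BT2 library of 4 h and 0 without the second of 24 h. With the replicate block, Cyr61 at 24 h passed at -1.32 (edgeR adjusted p = 0.0364). With a library left out, uncalled values reversed and ranged from -0.08 to 4.46 for Wisp1 at 4 h (a fitted value against a lone library of 0 counts), -0.53 to 1.47 for Wisp2 at 4 h, -0.63 to 0.13 for Wisp2 at 24 h, -1.78 to 0.22 for the difference of Wisp2 and -0.36 to 0.5 for the difference of Ctgf. The last was also -0.01 under RLE, upper quartile, DESeq2 and no filter. Over all genes, 2495 were called at 4 h against 621 with the compared groups alone and 112 to 2796 with a library left out. The counts with a library left out were 2982 to 6522 of 6016 at 24 h, 0 to 1443 of 1087 for the difference (1819 without a filter), 4629 to 7100 of 7162 for time in vehicle and 1025 to 4146 of 3548 for time in BT2. Upper quartile scaling moved the share of higher calls from 40.7% to 51.1% at 4 h and from 50.2% to 64.5% for time in BT2, and shifted the median of all genes by 0.112 for time in vehicle. In nuclei, thinning gave ratios over all nuclei of 1.2 for Ctgf and 0.441 for Nov, and 13 of 133 class ratios left their interval. Thinning gave 0.55 for Ctgf in fibroblast-like nuclei. The causes were not tested. Groups of 2 libraries limit the precision in tissue, and 1 library per group allows no test in nuclei.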
